A study of Mus musculus with 12 samples.

Results

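The 9 genes Sox9, Id2, Etv4, Etv5, Fgfr2, Spry1, Spry2, Spry4 and Dusp6 mark the distal tips of the growing lung or report the response of its epithelium to fibroblast growth factor (FGF). They were chosen by name, and every deposited peak whose midpoint lay in one of the RefSeq genes or within 50 kb of it was taken. This gave 673 of the 487413 peaks of 9 lists, of which 607 had the end of a member as the nearest end of a protein-coding gene and are called assigned. The other 66 lay nearer to a neighbour, 22 of them to Dhx8 beside Etv4 and 12 to Gm5148 beside Spry1. The 9 genes stand among 21883 protein-coding genes.

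FGF10 from the mesenchyme binds the receptor FGFR2 on tip epithelium and switches on the RAS-ERK kinase cascade. The cascade induces the ETS factors Etv4 and Etv5, and also its own brakes, the Sprouty proteins and the ERK phosphatase Dusp6. Sox9, an HMG-box factor, and Id2, which binds basic helix-loop-helix factors and keeps them from DNA, mark the multipotent cells of the tip, which are lost as alveolar cells differentiate.

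The assay was CUT&RUN: a nuclease is tethered to an antibody at its target, and the DNA it cuts free is sequenced. All libraries came from wild-type C57Bl6 lungs at E17.5, pooled over fetuses, from which EpCAM+ epithelial cells were taken with microbeads, 100000 per reaction. Peak lists were used from 3 NKX2-1, 2 PRDM16, 1 PRDM3 and 3 H3K4me3 libraries, and the 3 IgG samples were not analysed here, so the peaks have no IgG signal to be set against. NKX2-1, a homeodomain factor, sets lung epithelial identity. PRDM16 and its relative PRDM3, the product of Mecom, bind DNA through zinc fingers. H3K4me3 is a histone mark found at active promoters. Replicate 1 of PRDM16 used a rabbit antibody and replicate 2 a sheep antibody, so antibody and replicate cannot be told apart. No label says that replicates came from separate pools, so p-values measure only the spread between libraries, which may be technical.

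Fold enrichment is the authors' ratio of a peak's signal to background, and its percentile is the peak's place in its own list, with 50 the middle. Lists held 52716 to 111489 peaks for the 3 proteins and 14646 to 19117 for H3K4me3, and read depth is unknown. The names of the peaks fall into a pair of series, one with NKX2-1 replicate 1, H3K4me3 replicate 1 and all PRDM libraries, the other with replicates 2 and 3 of NKX2-1 and H3K4me3. NKX2-1 replicates 2 and 3 were coarse, since 96.1% and 96.7% of their peaks shared a fold enrichment with 99 or more others, against 74.8% in replicate 1. H3K4me3 replicate 1 also stood apart, since at the 9 genes 12 of its 24 assigned peaks, with fold enrichments of 4.11 to 8.99, were not in a region found in at least 2 libraries, and 11 of those 12 lay over a peak of NKX2-1, PRDM16 or PRDM3. Over its whole list 79.5% of peaks lay over such a region, against 50.0% at the 9 genes. No whole-list share was computed for the overlap with the 3 proteins. H3K4me3 lay within 1 kb of an end of 9 of 10 epithelial, 2 of 8 mesenchymal, 1 of 5 endothelial and 1 of 5 immune and blood marker genes.

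The 250 bases before the start site are shown for Dusp6, Id2, Spry1 and Spry2, the members whose start lay under a peak in the most libraries, 8 of 9 for the first 3 and 7 of 9 for Spry2. One start of Etv5 also lay under 7, and Spry2 was taken for its higher mean percentile over the factor libraries, 86.0 against 84.1. They were taken from RefSeq promoters of GRCm38.p6, the assembly of mm10, which gave a window for 6 of the 9 members, and are written 5′ to 3′ on the gene's strand. The Dusp6 window is chr10:99262981-99263230 (+), that of Id2 chr12:25096093-25096342 (-), that of Spry1 chr3:37639697-37639946 (+) and that of Spry2 chr14:105896820-105897069 (-). Capitals mark the CCAAT box (CCAAT, or ATTGG on the opposite strand) in Dusp6, Id2 and Spry1, and in Spry2 the NKX2 core (CAAGTG, here CACTTG) and then the ETS-like motif of PRDM3 (GATGAG, here CTCATC).
Dusp6: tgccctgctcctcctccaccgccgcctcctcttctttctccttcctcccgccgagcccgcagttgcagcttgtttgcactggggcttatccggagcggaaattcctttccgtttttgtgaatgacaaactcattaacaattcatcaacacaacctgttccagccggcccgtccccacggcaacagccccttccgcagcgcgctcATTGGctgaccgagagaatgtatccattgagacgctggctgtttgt
Id2: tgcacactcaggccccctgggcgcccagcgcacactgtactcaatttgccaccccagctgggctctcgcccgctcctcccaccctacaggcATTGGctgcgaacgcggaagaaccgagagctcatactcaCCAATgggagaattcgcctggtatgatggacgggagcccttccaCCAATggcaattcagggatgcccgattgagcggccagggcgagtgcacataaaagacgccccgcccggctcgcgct
Spry1: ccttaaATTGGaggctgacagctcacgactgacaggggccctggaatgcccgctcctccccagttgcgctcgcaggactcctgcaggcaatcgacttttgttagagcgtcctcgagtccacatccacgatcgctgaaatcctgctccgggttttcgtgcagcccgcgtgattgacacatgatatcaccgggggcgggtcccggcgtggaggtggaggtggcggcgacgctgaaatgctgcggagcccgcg
Spry2: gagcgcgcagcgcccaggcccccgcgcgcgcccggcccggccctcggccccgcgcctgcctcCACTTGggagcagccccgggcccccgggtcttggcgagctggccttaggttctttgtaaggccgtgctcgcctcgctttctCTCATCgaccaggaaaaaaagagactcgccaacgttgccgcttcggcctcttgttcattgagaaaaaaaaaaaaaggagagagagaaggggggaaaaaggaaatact

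Motifs were searched by letters on both strands and are a description only. The NKX2 core stood 188 bases before the start of Spry2 and in no other member's window, against 11.6% of the 32851 promoter windows. The ETS core CCGGAAG, found in 6.91% of all windows, and the GATA-like motif of PRDM3, AGATAAG, found in 2.74%, were in none of the members' 7 windows. GATGAG stood in the windows of Fgfr2 and Spry2, 79 and 107 bases before the start, and in 10.1% of all windows. The CCAAT box, which was searched only after these letters had been seen, was in 5 of the 7 windows, of Dusp6, Etv5, Id2 and Spry1, against 33.8% of all windows. Id2 had it 3 times in its 250 bases, at 76, 120 and 159 bases before the start. The members' windows had a median GC content of 62.4%, and all windows 52.4%. None of these motifs overlapped another in the windows shown.

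Every one of the 9 genes had peaks of all 3 proteins and of H3K4me3. Many of the peaks were weak. At q under 0.05 there were 59 of 72, 10 of 48 and 16 of 61 assigned NKX2-1 peaks. For PRDM16 there were 83 of 151 and 73 of 138, for PRDM3 42 of 88, and for H3K4me3 all 24, 12 and 13. The comparisons of shares below use all assigned peaks, whatever their q. A region is a stretch covered in at least 2 of 3 NKX2-1 or H3K4me3 libraries, in both PRDM16 libraries, or a peak of the PRDM3 library, and belongs to whichever gene has its end closest. All 9 members had a linked NKX2-1 region, against 51.3% of protein-coding genes, a PRDM16 region, against 59.1%, and a PRDM3 region, against 67.2%. All 9 also had a stretch shared by the 3 proteins, against 35.1% of genes, and an H3K4me3 region, against 55.7%. Counting only regions within 1 kb of a gene end, the members again numbered 9 of 9 for each set, and the share among all genes was 44.3% for NKX2-1, 48.9% for PRDM16, 47.9% for PRDM3, 31.3% for the 3 together and 55.7% for H3K4me3. With only the peaks of −log10 q of at least 5, 1 member, Dusp6, had a linked NKX2-1 region, against 6.1% of genes, and 0 a stretch of all 3 proteins, against 2.68%. No test of the list was made, since the members were chosen with results of these data known.

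The same counts were also read against genes that carry the promoter mark. Among the 12195 genes with H3K4me3 within 1 kb of an end, a region within 1 kb of an end was found at 77.4% for NKX2-1, at 80.8% for PRDM16, at 79.2% for PRDM3 and at 55.7% for the 3 together. Among the 179 genes with an H3K4me3 region of at least 5000 bases there, a length chosen after the widths had been seen, 86% had a stretch of all 3 proteins, and 6 members are among those genes. For each protein alone, 9 of 9 is thus little above the share among marked genes, and nothing is read from it. The median number of NKX2-1 regions per gene was 4 at the members and 1 over all genes. It was 8 and 1 for PRDM16, 9 and 1 for PRDM3, 2 and 0 for stretches of all 3, and 1 and 1 for H3K4me3. These numbers were not adjusted for gene length and not set against marked genes alone, so nothing is read from them either.

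**Figure D1:**
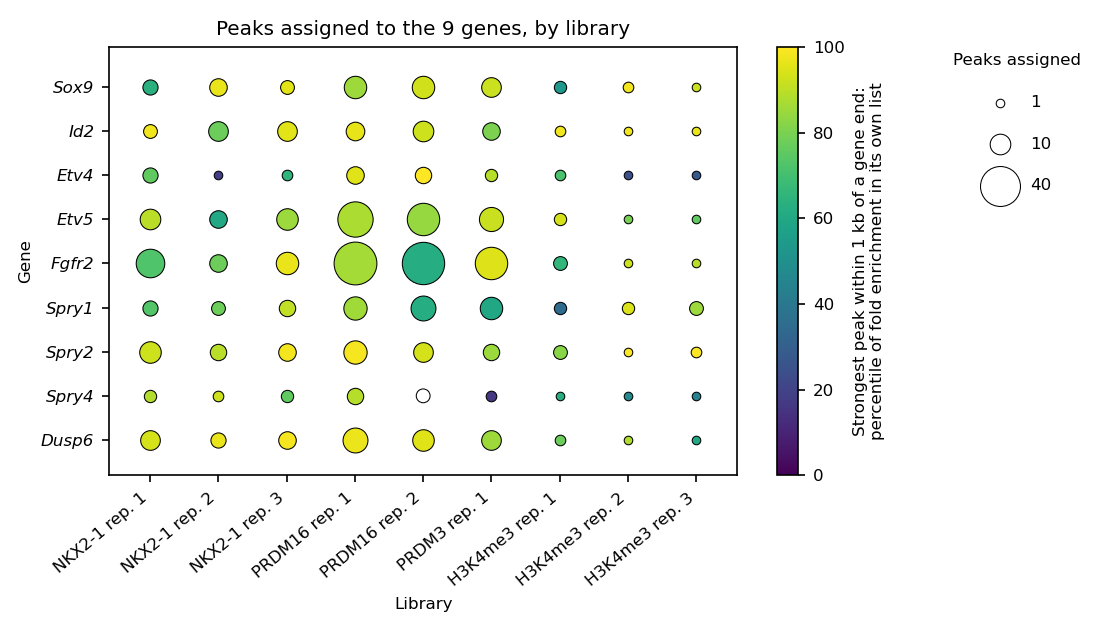
Peaks assigned to each gene (rows) in each library (columns). Circle area grows with the number of peaks, and colour gives the percentile of the strongest peak within 1 kb of a gene end, with white where there was none; Fgfr2 and Etv5 have the most PRDM16 peaks and Spry4 few peaks in any library.

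The receptor Fgfr2 (chr7:130162451-130266808, minus strand) carried the most peaks. It had 20, 7 and 12 NKX2-1 peaks, 46 and 45 PRDM16 peaks, 26 PRDM3 peaks and 4, 1 and 1 H3K4me3 peaks. The gene is also the longest of the 9, and per 100 kb of its window and per library it had 6.36 NKX2-1, 22.3 PRDM16 and 12.7 PRDM3 peaks. The PRDM16 and PRDM3 densities were the highest of the 9 genes, while that of NKX2-1 lay between 2.90 at Spry4 and 8.31 at Dusp6. The site with peaks in all 6 factor libraries lay over its start, at chr7:130264523-130267696, with fold enrichments of 5.27, 3.26 and 4.95 for NKX2-1, 6.29 and 4.12 for PRDM16, plus 6.72 for PRDM3. Its percentiles were lower in NKX2-1 replicates 1 and 2, at 72.5 and 77.7, than in replicate 3, at 96.8. H3K4me3 covered 8644 bases inside the gene from near its start, with fold enrichments of 18.3, 65.1 and 50.0.

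Etv5 and Etv4, the ETS factors induced by FGF signalling, differed in their number of peaks and in their promoter mark. Etv5 (chr16:22381313-22439570, minus strand) had 10, 7 and 11 NKX2-1 peaks, 31 and 26 PRDM16 peaks and 14 PRDM3 peaks. Etv4 (chr11:101769747-101785310) had 5, 1 and 2 NKX2-1 peaks, 7 and 6 PRDM16 peaks and 3 PRDM3 peaks. Etv5 had the higher count in each of the 6 factor libraries, and the gene is also the longer, with 58258 bases against 15564. At Etv5 the site over the start, chr16:22437505-22442311, had fold enrichments of 9.29, 4.07 and 3.32 for NKX2-1, 6.37 and 5.32 for PRDM16, plus 5.93 for PRDM3. These are the strongest peaks anywhere in the site, and their summits spanned 3377 bases. The NKX2-1 peaks of 9.29 and 4.07 had summits at -1710 and 1667 bases from the start. Within 1 kb of an end, NKX2-1 replicates 1 and 2 had 7.66 and 2.86, the latter with a −log10 q of 0.25. At Etv4 the leading site, chr11:101784108-101786007, lay over the higher end of the gene and over the lncRNA Gm39392. NKX2-1 had 5.43, 2.37 and 3.10 there, or percentiles of 75.6, 18.3 and 65.1, so only replicate 2 was low in its list. PRDM16 had 9.32 and 14.0, the replicate 2 value being rank 306 of 79072 peaks, and PRDM3 had 5.43. The 14.0 was the strongest PRDM16 replicate 2 peak at any of the 9 genes. H3K4me3 at Etv4 had fold enrichments of 19.996, 12.6 and 15.0, at percentiles of 71.3, 24.5 and 27.7, so it was low in replicates 2 and 3 and not in replicate 1. Its region of 1218 bases was the narrowest of the 9 genes. At Etv5 the mark had 29.7, 50.8 and 39.7 over 7514 bases.

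**Figure D2:**
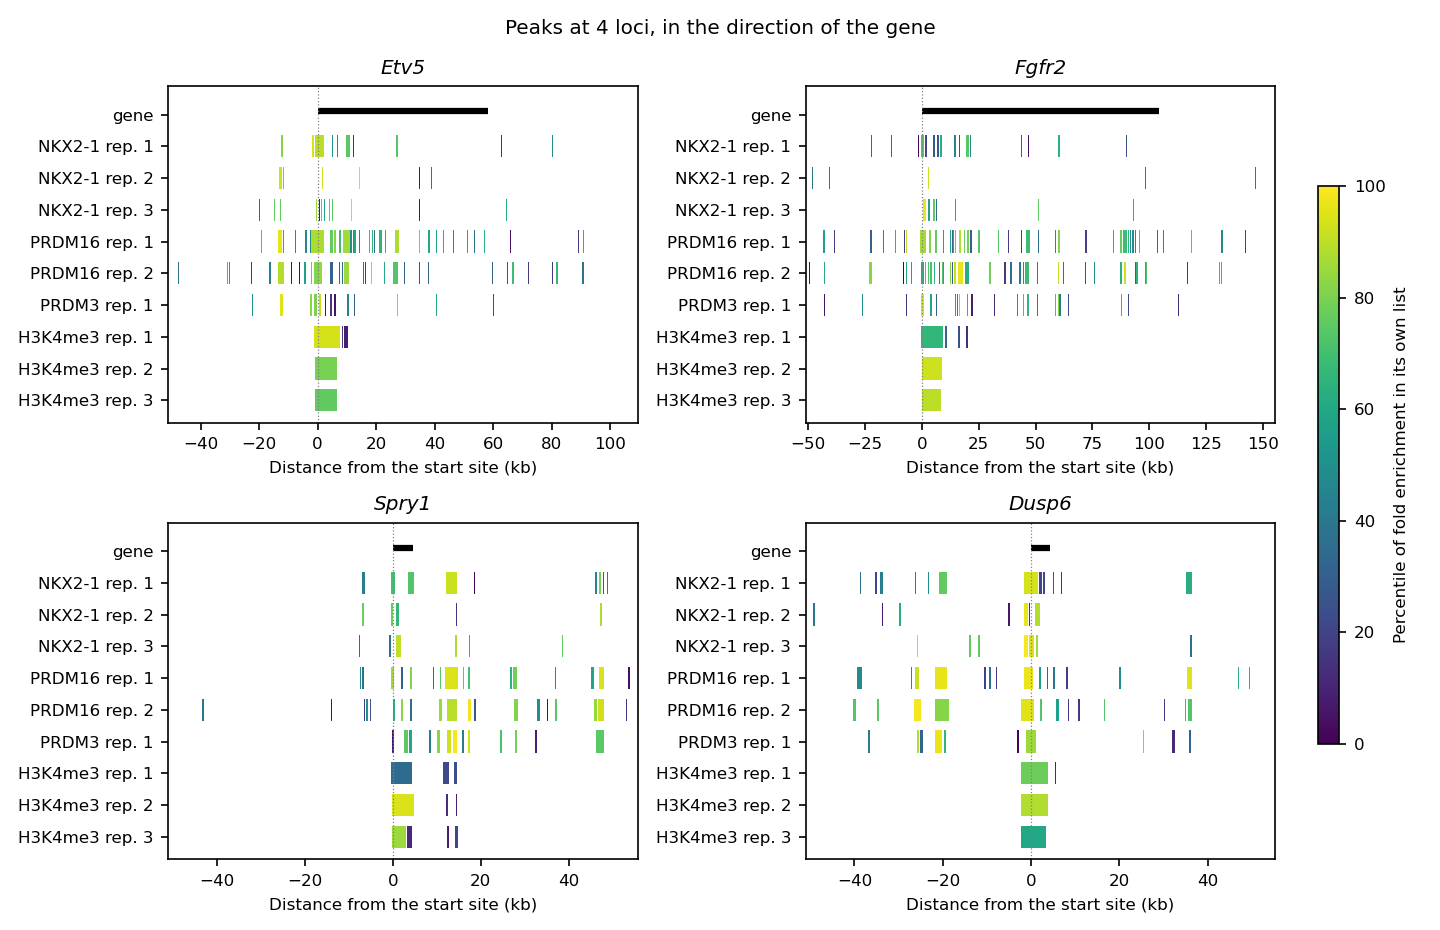
Peaks of each library (rows) at Etv5, Fgfr2, Spry1 and Dusp6, against distance from the start site in kb in the direction of the gene; the black bar is the gene and colour the percentile of the peak in its own list. H3K4me3 lies mainly over the start, while peaks of the 3 proteins also lie before and within the genes.

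The feedback inhibitors Spry2 and Dusp6 had peaks of all 6 factor libraries in the site over the start. At Spry2 (chr14:105891947-105896819, minus strand), a Sprouty that dampens receptor signalling upstream of ERK, the site over the start had 8.59, 3.82 and 5.97 for NKX2-1, 14.4 and 5.17 for PRDM16, plus 5.03 for PRDM3. Summits of the 6 libraries in that site spanned 2620 bases, with 1 of 2 tied NKX2-1 replicate 2 peaks taken. A stronger PRDM16 replicate 2 peak, of 7.06, lay at the far end of the gene. The 14.4 was the strongest PRDM16 replicate 1 peak at the 9 genes, rank 1462 of 111489, and it began 78 bases before the start, upstream of the gene. H3K4me3 at Spry2 had 23.6, 96.7 and 77.3, which was rank 3424, 38 and 27 in its list, so replicates 2 and 3 placed it near the top and replicate 1 did not. At Dusp6 (chr10:99263231-99267489, plus strand), the cytoplasmic phosphatase of ERK, the strongest end peak had 9.10, 4.88 and 6.39 for NKX2-1, 11.3 and 7.70 for PRDM16, plus 5.11 for PRDM3. All 6 values lay at percentiles of 85.5 to 98.8 in their lists, and the NKX2-1 replicate 3 peak, rank 782 of 79511, was the strongest of that library at the 9 genes. Summits of the 6 libraries over the Dusp6 start lay within 1197 bases, from -1194 to 3 relative to the start. In the window printed above, peaks of all 9 libraries overlapped the Dusp6, Id2 and Spry2 sequences.

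Spry1 and Spry4 are Sproutys too, and Spry4 carried the fewest peaks of the 9 genes. The strongest peaks within 1 kb of either end of Spry1 (chr3:37639947-37644599, plus strand) had 5.34, 3.26 and 4.00 for NKX2-1, 5.91 and 3.60 for PRDM16, plus 3.54 for PRDM3. They were not all at the start. The site over the start had 4.92, 3.26 and 2.40 for NKX2-1, 5.91 and 3.60 for PRDM16, plus 2.56 for PRDM3, the last at a percentile of 7.25. The leading Spry1 site lay instead at chr3:37651755-37654737, 7156 bases beyond the gene's end and over the lncRNA Gm46799. There NKX2-1 had 8.45, 2.30 and 3.75, PRDM16 9.14 and 6.04, and PRDM3 10.1, which was the strongest PRDM3 peak at the 9 genes, rank 476 of 52283. NKX2-1 replicate 2 was at a percentile of only 14.7 at this site, and the other 5 libraries between 87.1 and 99.1. The 6 summits lay within 285 bases, the closest grouping among the members' leading sites. A pair of small H3K4me3 regions, of 666 and 437 bases, lay over the same site with fold enrichments of 6.49 to 11.2. Spry4 (chr18:38586247-38601347) had 3, 2 and 3 NKX2-1 peaks, 6 and 4 PRDM16 peaks and 2 PRDM3 peaks, and its end peaks had 7.44, 4.07 and 3.20 for NKX2-1, 6.64 for PRDM16 replicate 1 and 2.71 for PRDM3. A PRDM16 replicate 2 peak of 5.44 also overlapped that end, but its midpoint was nearer to the end of the neighbour Arhgap26, so it was not assigned to Spry4. The Spry4 end peaks of NKX2-1 replicate 3 and PRDM3, with a −log10 q of 0.76 and 0.52, did not reach q under 0.05. The 8 other members each had an assigned end peak in all 9 libraries, and Spry4 in the remaining 8.

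Of the tip regulators, Id2 (chr12:25093799-25096092, minus strand) had the strongest NKX2-1 replicate 1 peak at the 9 genes, with 12.2, rank 1202 of 52716. The leading Id2 site, chr12:25092170-25101457, had 12.2, 3.26 and 5.59 for NKX2-1, 13.5 and 10.1 for PRDM16, plus 7.28 for PRDM3. In 5 of the 6 libraries the summit lay between -3422 and -2940 bases from the start, while NKX2-1 replicate 2 had 5 peaks of equal fold enrichment in the site, 1 of them with its midpoint at -3347. H3K4me3 covered 8745 bases at Id2, the widest of the 9 genes, with fold enrichments of 34.0, 80.3 and 59.8. Sox9 (chr11:112782210-112787757) had a leading site over its lower end, chr11:112780634-112785952, with 4.68, 4.88 and 4.79 for NKX2-1, 5.90 and 7.50 for PRDM16, plus 5.97 for PRDM3. The 6 summits spanned 4148 bases, and those of the 4.68 and 7.50 peaks lay inside the gene, 3157 and 3599 bases from its lower end. The percentile of that site was 63.6 in NKX2-1 replicate 1 and 96.6 and 95.5 in replicates 2 and 3, where fold values run lower. H3K4me3 at Sox9 had 14.9, 80.9 and 52.9 over 6436 bases.

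Over all members the end peaks of the 3 proteins had a higher median percentile than those of all genes in 5 of 6 libraries. The median percentile of the strongest end peak was 88.4, 77.7 and 95.5 over the members in the NKX2-1 libraries, against 80.5, 87.0 and 90.6 over all genes with an end peak. It was 88.7 and 92.6 for PRDM16, against 87.0 and 76.5 over all genes, and 85.5 for PRDM3, against 75.9. For H3K4me3 it was 71.3, 92.4 and 85.2, against 67.3, 62.7 and 61.5. The library in which the members stood below all genes was NKX2-1 replicate 2, and no difference was tested. These percentiles were not set against genes with H3K4me3 at an end alone. At q under 0.05, and whichever gene the peak was nearest to, NKX2-1 had a peak within 1 kb of an end of 9, 4 and 6 of the 9 members, against 54%, 17.8% and 25.8% of all genes. PRDM16 had one at 9 and 9 members, against 55.4% and 45.5% of genes, and PRDM3 at 8, against 34.8%. The members without one were Id2, Etv4, Etv5, Fgfr2 and Spry1 in NKX2-1 replicate 2. In NKX2-1 replicate 3 they were Etv4, Etv5 and Spry4, and in PRDM3 Spry4. H3K4me3 had one at 9 members in each library, against 58.7%, 55.9% and 54.3% of genes.

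The H3K4me3 domain was wide at most of these genes. The region at the gene end had a median of 6436 bases over the members and 1625 bases over all regions within 1 kb of a gene end. It was 8745 bases at Id2, 8644 at Fgfr2, 7514 at Etv5, 7286 at Spry2, 6436 at Sox9 and 6073 at Dusp6. Of all end regions, only 0.154% were as wide as that of Id2, 0.163% as Fgfr2, 0.281% as Etv5, 0.309% as Spry2, 0.527% as Sox9 and 0.599% as Dusp6. Spry1, with 4576 bases, was matched by 2.10% of end regions, Spry4, with 2363 bases, by 22.1%, and Etv4, with 1218 bases, by 70.9%. The mark was wide at 7 of the members, middling at Spry4 and narrower than the median at Etv4.

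**Figure D3:**
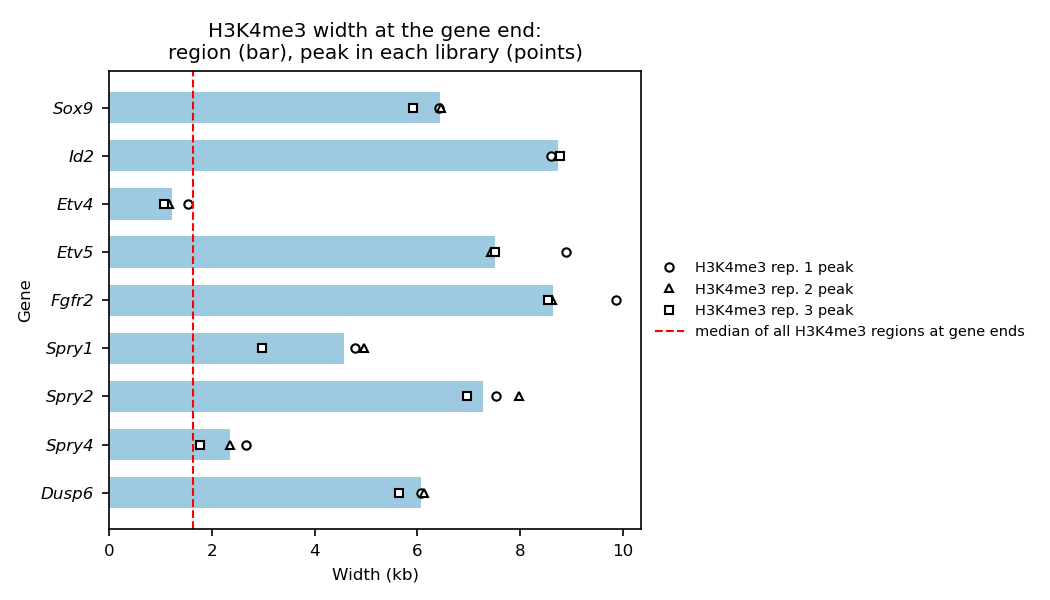
Width in kb of the H3K4me3 region at each gene's end (bars, stretches covered in at least 2 of 3 libraries) and of the strongest peak in each library (points). The dashed line is the median of all such regions at gene ends, 1625 bases; Etv4 alone lies under it.

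The first comparison asks where NKX2-1 peaks lie at these genes relative to the promoter mark. Peaks within 1 kb of a gene end made up 23.6%, 37.5% and 26.2% of the assigned NKX2-1 peaks, against 54.2%, 75.0% and 84.6% of the H3K4me3 peaks. The groups did not overlap. The mean was 29.1% ± 7.38 for NKX2-1 and 71.3% ± 15.6 for H3K4me3 (SD, n = 3 each), a difference of -42.1 percentage points with p = 0.1 by a two-sided exact permutation test, the smallest p that 3 against 3 can give. H3K4me3 is a promoter mark, and distance was taken from the peak's edge, which favours wide peaks. The direction of the difference was therefore given beforehand, and nothing particular to the 9 genes is read from the p-value. Within the first series of peak names the shares were 23.6% and 54.2%, a difference of -30.6, and within the second 31.9% and 79.8%, a difference of -47.9. Without H3K4me3 replicate 1 the difference was -50.7. Over the whole lists the shares were 25.8%, 15.2% and 14.7% for NKX2-1 and 62.3%, 70.6% and 72.9% for H3K4me3, so NKX2-1 replicates 2 and 3 had a larger share near ends at the 9 genes than over their whole lists, and replicate 1 a smaller one. For PRDM16 the share was 12.6% and 11.6% at the 9 genes, against 14.7% and 17.8% over the whole lists, and for PRDM3 20.5%, against 22.3%.

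The second comparison asks what share of the peaks at these genes falls on H3K4me3. It counts peaks and not binding, and 1 marked region can hold several peaks. At Id2 the marked region held 2, 6 and 6 NKX2-1 peaks, 4 and 5 PRDM16 peaks and 6 PRDM3 peaks. Of the NKX2-1 peaks 33.3%, 47.9% and 44.3% overlapped an H3K4me3 region, against 17.9% and 22.5% of the PRDM16 peaks and 29.5% of the PRDM3 peaks. In counts, 24, 23 and 27 NKX2-1 peaks lay on the mark, against 27 and 31 PRDM16 peaks and 26 PRDM3 peaks. The assigned peaks numbered 72, 48 and 61 against 151 and 138 and 88, so the shares differ through peaks off the mark. By share, each NKX2-1 library lay above each PRDM library. The mean was 41.8% ± 7.59 for NKX2-1 and 23.3% ± 5.88 for the PRDM libraries (SD, n = 3 each), a difference of 18.5 percentage points with p = 0.1 by a two-sided exact permutation test, again the smallest possible. Within the first series of peak names the shares were 33.3% for NKX2-1 and 23.3% for PRDM, a difference of 10.0, and the second series, with a mean of 46.1% for NKX2-1, held no PRDM library. Over whole lists the shares were 30.5%, 17.3% and 16.7% for NKX2-1 and 15.0%, 19.4% and 27.7% for the PRDM libraries, which overlap.

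**Figure D4:**
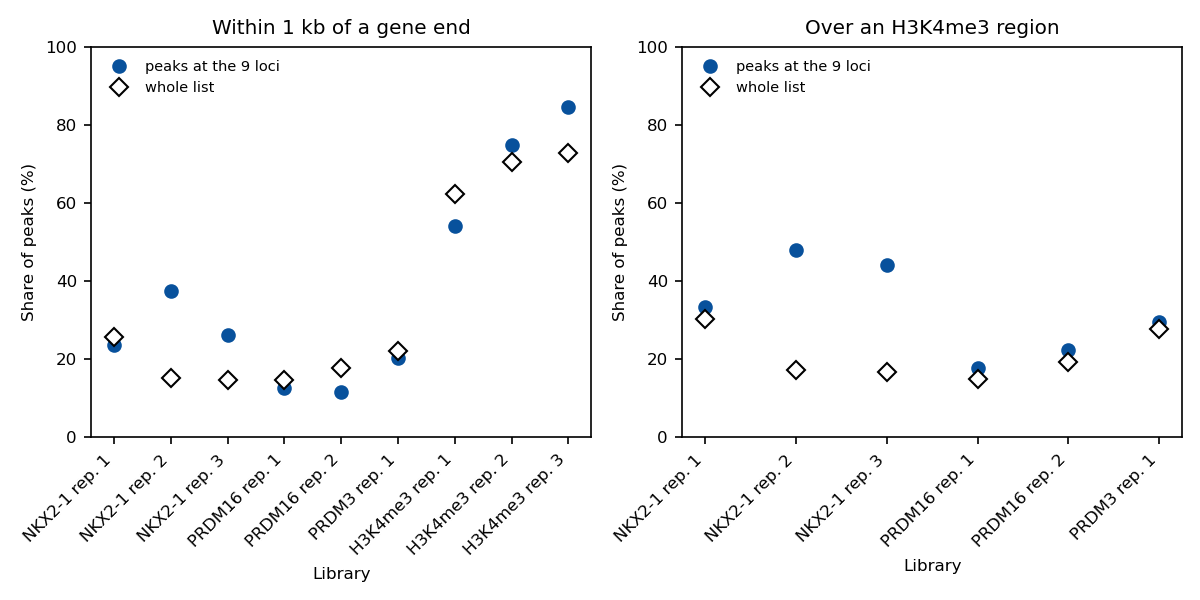
Share of peaks in percent within 1 kb of a gene end (left) and over an H3K4me3 region (right) in each library, at the 9 genes (filled) and over the whole list (open). NKX2-1 replicates 2 and 3 have larger shares at the 9 genes than over their whole lists.

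Promoters included, overlapping peaks of the 6 factor libraries formed 264 sites at the 9 genes, of which 163 rested on 1 library and 10 on all 6. Of the 264, 17 lay within 1 kb of an end of the gene and 220 lay off every H3K4me3 peak. Sites were not counted over the whole lists. By peak, 55.6%, 52.1% and 52.5% of assigned NKX2-1 peaks lay off every H3K4me3 peak, against 64.4%, 81.35% and 82.0% of the whole lists. For PRDM16 it was 74.8% and 71.0%, against 82.0% and 77.1%, and for PRDM3 60.2%, against 68.6%. The 3 proteins shared 37 sites, 16 of them over 1 kb from the gene's ends and off every H3K4me3 peak. A shared site needed a peak in at least 1 library of each protein, a looser rule than that for the stretches counted above. These distal sites lay at 6 of the members, 8 of them inside the gene, and 14 had peaks in both PRDM16 libraries. NKX2-1 was the less replicated protein, with 9 of the 16 resting on its replicate 1 alone. Only 4 of the 16, and 17 of the 37, had peaks in at least 2 NKX2-1 libraries, both PRDM16 libraries and PRDM3. The site with the highest mean percentile lay 11608 bases before the start of Etv5, at chr16:22451178-22453162, and had peaks in all 6 libraries. Its fold enrichments were 6.11, 4.07 and 3.20 for NKX2-1, 10.0 and 5.89 for PRDM16, plus 6.79 for PRDM3, with summits within 649 bases. The NKX2-1 replicate 3 peak, with a −log10 q of 0.76, did not reach q under 0.05. This site was the only distal one with a peak of NKX2-1 replicate 2 among the 8 named by rank.

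A pair of sites lay before Dusp6. That at chr10:99241367-99244607, 18624 bases before the start, had 5.43 in NKX2-1 replicate 1, 10.7 and 4.89 for PRDM16 and 7.42 for PRDM3. That at chr10:99236780-99238640, 24591 bases before the start and over the lncRNA Gm34777, had 3.65 and 4.00 in NKX2-1 replicates 1 and 3, 7.88 and 10.4 for PRDM16 and 5.42 for PRDM3. At both the PRDM peaks ranked high, with percentiles of 81.9 to 98.4, while NKX2-1 replicate 2 had no peak. Beyond the end of Spry1, chr3:37656956-37657759 had 3.02 in NKX2-1 replicate 3, 4.09 and 10.2 for PRDM16 and 6.11 for PRDM3. That NKX2-1 peak, the only one at the site, had a −log10 q of 0.76 and did not reach q under 0.05. Inside Fgfr2, chr7:130176807-130178174 had 6.57 in NKX2-1 replicate 1, 3.77 and 6.56 for PRDM16 and 4.48 for PRDM3, and its 4 summits lay within 103 bases. The other named sites inside a gene were a pair in Fgfr2 and 1 in Etv5, where PRDM16 had 4.14 to 6.45 and PRDM3 3.40 to 4.75. In NKX2-1 replicate 1 these 3 sites had 4.70, 3.65 and 5.37, at percentiles of 44.7 to 73.5. NKX2-1 replicate 3 had a peak, of 2.83, at 1 of the 3, in Fgfr2. That peak, with a −log10 q of 0.42, and the PRDM3 peak there, with 1.22, did not reach q under 0.05.

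**Figure D5:**
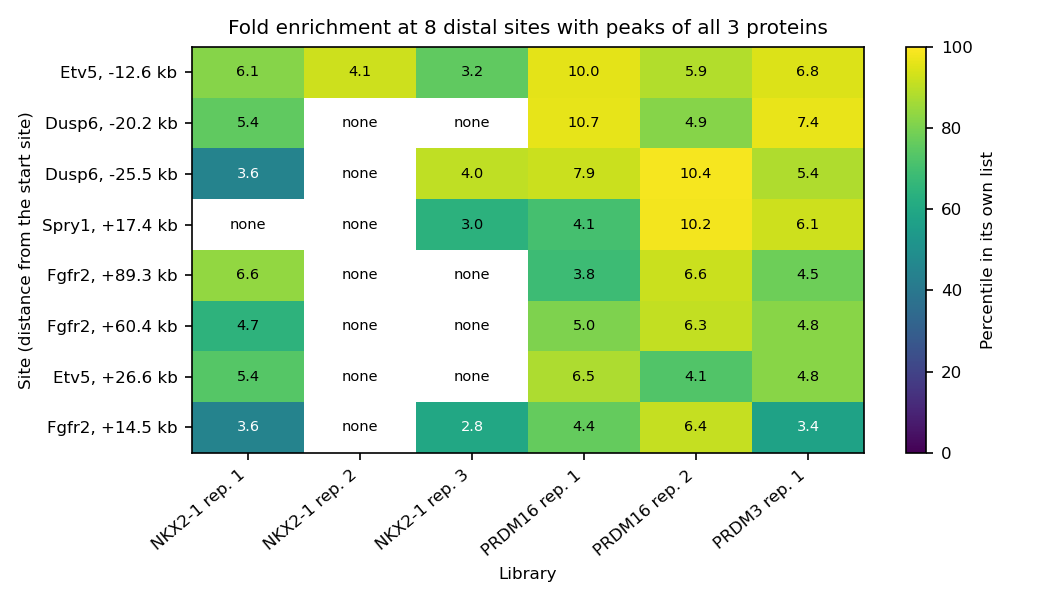
Fold enrichment (numbers) and percentile in its own list (colour) of the strongest peak of each library (columns) at the 8 distal sites of all 3 proteins with the highest mean percentile (rows, by distance from the start site). Etv5 has the 1 site with a peak in all 6 libraries; white cells have no peak.

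The rest of the pathway is given by lists written with earlier results of these data known, and was not tested. For a linked region the share of all genes was 51.3% for NKX2-1, 59.1% with PRDM16, 67.2% with PRDM3 and 35.1% for all 3, and among genes with H3K4me3 at an end 55.7% had all 3 there. Of 8 FGF ligand genes, 4 had a linked NKX2-1 region, 4 a PRDM16 region and 5 a PRDM3 region, 3 had all 3, and Fgf10, the mesenchymal ligand of FGFR2, and Fgf22 had none. Fgf18 and Fgf9 had stretches of all 3 proteins and H3K4me3 at an end, while Fgf1 had such a stretch without the mark at an end. Of 14 receptors and adaptors, 12 had NKX2-1, 13 PRDM16, 14 PRDM3 and 8 all 3 (8 within 1 kb of an end), among them Shc1, an adaptor of activated receptors, with 19.9, 3.86 and 4.92 for NKX2-1. Of 13 genes of the RAS-ERK cascade, 13 had NKX2-1, 11 PRDM16, 11 PRDM3 and 8 all 3 (6 within 1 kb of an end), with Rasa1, a RAS GTPase-activating protein, leading at 12.9, 6.18 and 9.90 for NKX2-1.

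Of 18 other feedback and immediate response genes, 16 had NKX2-1, 17 PRDM16, 17 PRDM3 and 15 all 3 (14 within 1 kb of an end), and Spry3 had none. Egr1, an immediate-early zinc-finger factor, had 17.9, 5.66 and 7.89 for NKX2-1 and 27.4 and 5.45 for PRDM16. Spred1, a membrane-bound inhibitor of RAS-ERK signalling, had 12.1, 4.88 and 4.79 for NKX2-1. Of 6 other tip genes, 5 had a stretch of all 3 proteins, with Mycn, a growth-promoting factor of the tip, at 16.2 and 4.92 in NKX2-1 replicates 1 and 3. Id1, Id3 and Id4, the relatives of Id2, all had such a stretch and H3K4me3 at an end. H3K4me3 lay at an end of 14 of 14 receptors and adaptors, 13 of 13 genes of the cascade, 17 of 18 feedback genes, 6 of 6 other tip genes, 3 of 3 ID genes and 4 of 8 ligands, against 55.7% of all genes.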

How the data were processed

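Peak lists of 9 of the 12 samples were used, grouped by the labels. The submitters' processing notes name Trimmomatic, Bowtie2, MACS2 and HOMER, with no version or setting, and mm10 as the build. Each sample has its own deposited list. The sources used here do not say if peaks were called against a control. The deposited fold enrichment is a ratio to background from the authors' peak calling. The −log10 p, the −log10 q and the score, 10 times one of them, were likewise deposited by the authors. The lists differ in length and scale, so fold values were ranked only within a list.

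Autosomal, X and Y peaks were assigned to the nearest end of a RefSeq protein-coding gene (GRCm38.p6, the assembly of mm10) by their midpoint. Strand was known for the 6 members in the promoter table, and distances at Sox9, Etv4 and Spry4 are from either gene end. Regions of at least 20 bases, overlapping by at least 1 base, were compared. Shares were compared over libraries with exact permutation tests, after the interval functions and that test had been tested on simulated data. All members are named, with for each the site with peaks in the most factor libraries, ties by mean percentile, each library's strongest peak, up to 8 distal sites by mean percentile, and up to 4 genes per pathway list with all 3 proteins by NKX2-1 percentile, of which not all are named, and up to 2 without a region. Members, lists and rules were chosen with earlier results of these data known. Added after seeing the data were the CCAAT box and the backgrounds among genes with H3K4me3 and at stricter q. No interval is given because read depth is unknown. The scripts ran on Python 3.11.15 with pandas 2.3.3, scipy 1.17.1, numpy 2.4.6 and matplotlib 3.10.9.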

Additional observations from a re-analysis of the deposited data

How the results depend on the processing

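The difference in the share of peaks near gene ends, NKX2-1 minus H3K4me3, was -42.1 percentage points and lay between -50.7 and -24.9 over 13 alternatives, and the difference in the share over H3K4me3, NKX2-1 minus PRDM, was 18.5 and lay between 15.1 and 24.97 over 17. Leaving out each library in turn gave -50.7 to -35.5 and 15.5 to 22.8, each with an exact permutation p of 0.1 to 0.2. With a replicate block, taking NKX2-1 and H3K4me3 libraries of the same number as paired, the difference was again -42.1, with an exact sign-flip p of 0.25, the smallest that 3 pairs allow. The labels do not say that the numbers pair the libraries, and NKX2-1 and PRDM share too few numbers for a block. Peak strength mattered most. At −log10 q of at least 5, 1 of the 9 genes had a linked NKX2-1 region and 0 a stretch of all 3 proteins, and the mean number of assigned peaks per library was 4.33 for NKX2-1, 22.5 for PRDM16 and 11.0 for PRDM3, against 60.3, 144.5 and 88 with all peaks. With the 20000 strongest peaks of each list it was 26.7 for NKX2-1, 31.0 for PRDM16 and 37.0 for PRDM3, and 6 genes had a stretch of all 3 proteins. These alternatives hold fewer peaks by construction. The shares could not be computed at −log10 q of at least 5, where NKX2-1 replicate 2 had 0 peaks at these genes, and counts with PRDM3 have no value without its 1 library. The other 97 values over the alternatives kept their direction or lay within 1.5 times the reported count.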
